A study of Homo sapiens with 6 samples.

Results

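The genes described here are 50 genes of cell proliferation and mitosis, measured in SKOV3, an established human ovarian cancer cell line. The cell line is named by the study, whereas the sample titles read SKOV-1. They were listed by gene name, by a rule that uses no signal values but was written when earlier results of these data were known, and fall into 10 roles, from the transcription factors that switch on the cell cycle to the machinery that separates chromosomes. All 50 had at least 1 probe on the array, and all 50 had a probe well above background on all 6 arrays. They are 50 of the 43492 genes of the GENCODE annotation that a probe of the array matched. The array held 125584 probes with a value, of which 63372 were tested, those detected above background on each of the 3 arrays of one labelled group or both. Each gene was represented by its brightest probe.

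The study compared cells treated with 1α,25(OH)2D3, the hormonally active form of vitamin D (100 nmol/L, 72 h), with cells given vehicle, which was ethanol, for the same time. Each group had 3 single-color arrays, and nothing in the labels says that the 3 came from separate cultures, so p-values measure only the spread between these arrays, which may be technical. All values are log2 signals relative to the array's 75th percentile, and a difference of 1 is a fold change of 2. A level is comparable between arrays for 1 gene but not between genes, because each probe has its own brightness.

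The array labels were first checked against CYP24A1, the enzyme that breaks down 1α,25(OH)2D3 and a well-known target of it. The CYP24A1 probe A_23_P28815 read -5.10, 6.70 and -3.80 in the 1α,25(OH)2D3 group, in the order of replicates 1, 2 and 3, and 6.90, -2.48 and 7.29 in the vehicle group in the same order. The probe was well above background only on 1α,25(OH)2D3 replicate 2 and vehicle replicates 1 and 3, so CYP24A1 went against the labels on most arrays. An array is therefore called by its label, and every direction between groups is one between labels. Values are given in the order of replicates 1, 2 and 3. The 5 markers of the epithelial cancer line had a mean signal of 5.64 to 5.97 on every array. Among them KRT18, measured by a probe on a transcript without a coding sequence, read only -0.30 to 0.45. The ERBB2 probe also lay on a transcript without a coding sequence, and read 6.62 to 7.29. Of 10 markers of leukocytes, endothelium and fibroblasts, 8 were above background on all arrays, with a mean of 0.08 to 0.24 with the 1α,25(OH)2D3 label and 0.05 to 0.30 with the vehicle label, whereas DCN was above background on 0 arrays and LUM on 1. The 8 were uneven. CD14 read 1.69 to 2.13, above KRT18 on every array, and CDH5 read 0.55 to 1.08, whereas CD3E read -1.32 to -0.90.

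A dividing cell first copies its DNA and then separates the copies. E2F factors drive the genes of DNA replication, whose products are needed from late G1 into S phase, while the genes of mitosis are switched on later, in G2 and M, through MYBL2 and FOXM1. In RNA from a whole culture, fewer cells in a phase and less RNA per cell cannot be told apart.

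Between the labelled groups, no proliferation gene differed at the adjusted threshold. The smallest adjusted p among the 50 genes was 0.712 (limma, Benjamini-Hochberg over all 63372 probes), and 0% of all probes tested passed. At an unadjusted p under 0.05, 1 gene was higher with the 1α,25(OH)2D3 label, CENPA, and 0 were lower, beside 3.90% of all probes higher and 2.55% lower. CENPA was also the one gene that passed a fold change above 2 together with that p, a rule met by 0.587% of all probes in the higher direction and 0.224% in the lower. Log2 fold changes were positive for 25 genes and negative for 25, against 50.3% positive over all probes, and their median was -0.02, against 0.002 over all probes. They ran from -0.69 for CCNE2 to 1.11 for CENPA. The ranges of both labelled groups overlapped for all 50 genes, while 6.30% of all probes were without overlap and higher with 1α,25(OH)2D3 and 5.18% without overlap and lower.

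The genes varied more between arrays than most probes. Their median SD over the 6 arrays was 0.538, with a range of 0.152 to 0.954, beside 0.264 over all probes tested and 0.244 over mRNA probes above background on all arrays. Without the array labelled vehicle replicate 2, over the other 5 arrays, the median SD of the 50 genes was 0.342. Leaving out an extreme array lowers an SD in any case, and no such value is given for all probes. Vehicle replicate 2 was the highest of the 6 for 25 genes and the lowest for 14, beside 16.8% and 17.5% of all probes. For 15 genes it lay outside the other 5 arrays by more than their whole range, in one direction or the other, which held for 1.85% of all probes above and 2.37% below. The comparison of this array with the rest, and the merging of the roles into replication and mitosis below, were chosen after the values were seen and carry no test.

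**Figure D1:**
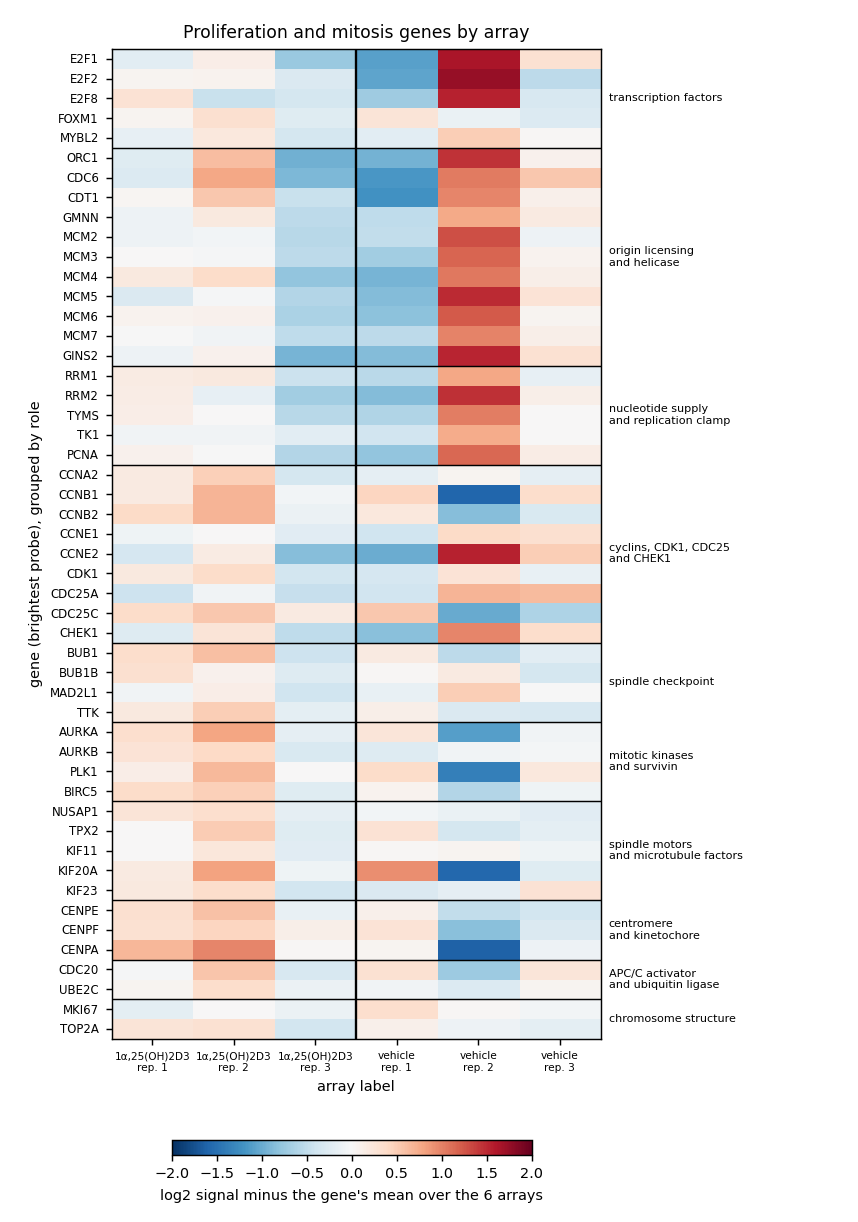
Log2 signal of each of the 50 genes on each of the 6 arrays (columns, by label), as the difference from the gene's mean over the 6 arrays, with genes in rows grouped by role and red above, blue below the mean. The column of vehicle replicate 2 is red for all 16 replication genes and blue for most mitotic genes, whereas vehicle replicate 1 and 1α,25(OH)2D3 replicate 3 are blue for the replication genes.

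Among the transcription factors, E2F1, E2F2 and E2F8 had their highest signal on the array labelled vehicle replicate 2, and none of the 5 genes differed between labels. E2F1, an activator of replication genes, read 1.42, 1.76 and 0.89 with the 1α,25(OH)2D3 label and 0.54, 3.26 and 1.93 with the vehicle label. Its vehicle arrays therefore spanned the whole range of the other group, and the difference between labels was -0.56 (SE 0.61, adjusted p = 0.809). Without vehicle replicate 2 it was 0.12, so that single array set its sign.

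E2F2, another activator of the family, read -0.72, -0.70 and -1.06 with the 1α,25(OH)2D3 label and -1.83, 0.96 and -1.30 with the vehicle label. Its difference of -0.11 became 0.73 (SE 0.24, adjusted p = 0.912 by limma) without vehicle replicate 2, the 1 gene at an unadjusted p under 0.05 in that fit, in which 2.28% of all probes were higher and 1.87% lower at that threshold. E2F8, a repressor of the family that is itself made in S phase, was measured by a probe on a transcript without a coding sequence. That probe lay 1.85 above the mean of the other 5 arrays on vehicle replicate 2, and its protein-coding probe failed the background test on any of them.

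MYBL2 and FOXM1, which act on mitotic genes, varied less. MYBL2 read 3.70, 4.07 and 3.52 with the 1α,25(OH)2D3 label and 3.66, 4.36 and 3.88 with the vehicle label, a difference of -0.20 (SE 0.24, adjusted p = 0.820). FOXM1 read 2.38, 2.65 and 2.08 against 2.59, 2.20 and 2.06, a difference of 0.09 (SE 0.22, adjusted p = 0.920). FOXM1 was the 1 factor of the 5 for which vehicle replicate 2 was not the highest array.

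The replication genes formed the most uniform block. They comprise 11 genes of origin licensing and the replicative helicase (ORC1, CDC6, CDT1, its inhibitor GMNN, the helicase subunits MCM2 to MCM7 and GINS2) and 5 genes of nucleotide supply and the clamp (RRM1, RRM2, TYMS, TK1 and PCNA). For 16 of these 16 genes vehicle replicate 2 was the highest array, a position it held for 16.8% of all probes. It exceeded the mean of the other 5 arrays by a median of 1.32, with a range of 0.88 for TK1 to 1.83 for GINS2, and for 9 of the 16 the gap was larger than the whole range of the others. The lowest array was vehicle replicate 1 for 12 of the 16 (17.3% of all probes) and 1α,25(OH)2D3 replicate 3 for 4 (16.5%). The highest and the lowest array of most replication genes thus carried the same label.

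MCM5, a subunit of the helicase that opens DNA, read 3.48, 3.74 and 3.19 with the 1α,25(OH)2D3 label and 2.90, 5.26 and 4.04 with the vehicle label. Vehicle replicate 2 stood 1.78 above the mean of the others, and the difference between labels was -0.59 (SE 0.52, adjusted p = 0.768). GINS2, a part of the same helicase, read 3.78, 3.96 and 2.95 against 3.01, 5.41 and 4.18. Its difference of -0.64 (SE 0.57, adjusted p = 0.768) was the most negative of the replication genes and became -0.03 without vehicle replicate 2.

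PCNA, the sliding clamp that holds polymerases on DNA, read 5.09, 5.00 and 4.42 with the 1α,25(OH)2D3 label and 4.22, 6.16 and 5.16 with the vehicle label, a difference of -0.34 (SE 0.45, adjusted p = 0.843). RRM2, the regulated subunit of the reductase that makes deoxynucleotides, read 2.93, 2.63 and 2.09 against 1.93, 4.25 and 2.90, a difference of -0.48 (SE 0.54, adjusted p = 0.813). For both genes vehicle replicate 2 lay far above all other arrays and vehicle replicate 1 below them.

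Over the 16 replication genes the fold change was negative for 15 and positive for 1 with all arrays (median -0.33), and positive for 15 and negative for 1 without vehicle replicate 2 (median 0.14). The direction between labels therefore turned with 1 array.

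The probes of 2 replication genes and 2 mitotic genes are shown because their signals moved in opposite directions on vehicle replicate 2. All 4 are 60-base probes within coding sequence, and positions are exact matches to GRCh38. The PCNA probe matched the minus strand across an exon junction at chr20:5115311-5115456, the MCM5 probe the plus strand across a junction at chr22:35423314-35424185, the PLK1 probe the plus strand across a junction at chr16:23689649-23689891, and the CDC20 probe the plus strand in exon 8 of 11 at chr1:43360866-43360925.
PCNA probe: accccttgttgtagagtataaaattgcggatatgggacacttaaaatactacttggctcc
MCM5 probe: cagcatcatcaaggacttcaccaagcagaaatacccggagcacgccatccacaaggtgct
PLK1 probe: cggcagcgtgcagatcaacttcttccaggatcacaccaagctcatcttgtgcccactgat
CDC20 probe: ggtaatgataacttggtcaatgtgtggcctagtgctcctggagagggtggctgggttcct

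Of the brightest probes of the 50 genes, 28 lay in the 3' UTR, 19 in coding sequence, 2 across both and 1 (E2F8) in a transcript without a coding sequence. The BUB1B probe also matched the read-through transcript of BUB1B and PAK6.

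The cyclins, CDK1, its phosphatases and the checkpoint kinase CHEK1 were divided: vehicle replicate 2 was the highest array for 4 of the 9 and the lowest for 3. CCNE2, the S-phase cyclin E2, and CHEK1, which restrains the cell cycle when replication stalls, had their highest signal on vehicle replicate 2, 1.84 and 1.18 above the mean of the other arrays. CCNB1, the mitotic cyclin B1, had its lowest signal there: it read 4.69, 5.20 and 4.46 with the 1α,25(OH)2D3 label and 4.95, 2.92 and 4.87 with the vehicle label. The 5 other arrays of CCNB1 spanned a range of 0.745 and vehicle replicate 2 lay 1.91 below their mean, so that the difference between labels was 0.53 (SE 0.52, adjusted p = 0.787) with that array and -0.13 without it.

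CDC25A, the phosphatase of the S-phase kinases, read -0.25, 0.10 and -0.29 against -0.22, 0.85 and 0.80, a difference of -0.62 (SE 0.30, adjusted p = 0.712). CDC25C, the phosphatase that activates CDK1 at mitotic entry, read 1.78, 1.95 and 1.59 against 1.95, 0.41 and 0.79, a difference of 0.72 (SE 0.37, adjusted p = 0.712). For each phosphatase the arrays of the 1α,25(OH)2D3 label agreed closely and vehicle replicates 2 and 3 lay to one side of vehicle replicate 1. CDK1 itself, the kinase of mitotic entry, read 3.27, 3.44 and 2.71 against 2.74, 3.35 and 2.93, a difference of 0.13 (SE 0.25, adjusted p = 0.892).

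The mitotic genes, 20 in 6 roles, showed the opposite pattern, less uniformly. Vehicle replicate 2 was the lowest array for 11 of the 20 and the highest for 1 (MAD2L1), beside 17.5% and 16.8% of all probes. Its median distance from the mean of the other arrays was -0.39, from -1.94 for CENPA to 0.59 for MAD2L1, and for 3 of the 20 (PLK1, KIF20A and CENPA) the gap exceeded the whole range of the others. The highest array was 1α,25(OH)2D3 replicate 2 for 16 of the 20, a position it held for 15.2% of all probes. Fold changes were positive for 18 genes and negative for 2 (median 0.26), and without vehicle replicate 2 positive for 15 and negative for 5 (median 0.15).

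CENPA, the histone H3 variant that marks centromeres, read 0.83, 1.15 and 0.19 with the 1α,25(OH)2D3 label and 0.23, -1.44 and 0.06 with the vehicle label. Its difference of 1.11 (SE 0.46, 95% interval 0.05 to 2.16, adjusted p = 0.712 by limma) rested largely on vehicle replicate 2 and was 0.58 (SE 0.30, adjusted p = 0.912) without it, no longer at an unadjusted p under 0.05. The kinetochore genes CENPE and CENPF were lowest on the same array, so that vehicle replicate 2 was the lowest for 3 of 3 genes of this role, with 1α,25(OH)2D3 replicate 2 the highest for all 3.

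Among the mitotic kinases, AURKA, which matures the spindle poles, read 4.33, 4.78 and 3.81 against 4.23, 2.89 and 3.92, a difference of 0.62 (SE 0.38, adjusted p = 0.715). PLK1, which acts from mitotic entry to exit, read 4.39, 4.91 and 4.27 against 4.63, 2.89 and 4.47. Without vehicle replicate 2 the PLK1 difference of 0.53 became -0.03, and the other 5 arrays spanned 4.27 to 4.91.

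KIF20A, a motor needed for the final separation of daughter cells, read 3.90, 4.52 and 3.63 against 4.64, 2.16 and 3.47, a difference of 0.59 (SE 0.57, adjusted p = 0.784) that became -0.04 without vehicle replicate 2. NUSAP1, which bundles spindle microtubules, read 0.28, 0.37 and -0.16 against -0.03, -0.11 and -0.19, a difference of 0.28 (SE 0.19, adjusted p = 0.721). The vehicle arrays of NUSAP1 lay close together, unlike those of KIF20A, although both genes serve the spindle.

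The spindle checkpoint, which delays the separation of chromosomes until all are attached, showed small differences. BUB1 read 1.44, 1.70 and 0.68 against 1.28, 0.57 and 0.88, a difference of 0.37 (SE 0.30, adjusted p = 0.753), and TTK read 2.04, 2.34 and 1.64 against 1.97, 1.55 and 1.52, a difference of 0.33 (SE 0.23, adjusted p = 0.724). UBE2C, the ubiquitin-conjugating enzyme of the anaphase-promoting complex, read 2.61, 2.93 and 2.46 against 2.49, 2.29 and 2.62, a difference of 0.20 (SE 0.19, adjusted p = 0.780). The groups overlapped for each of these genes.

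For a widely used marker of proliferation, the sign of the difference between labels was not the same in all probes. MKI67, which encodes the Ki-67 protein that coats mitotic chromosomes, read by its brightest probe 4.99, 5.21 and 5.07 with the 1α,25(OH)2D3 label and 5.52, 5.21 and 5.13 with the vehicle label, a difference of -0.20 (SE 0.17, 95% interval -0.59 to 0.19, adjusted p = 0.759). Both other detected MKI67 probes, which also matched protein-coding transcripts, spanned 1.73 to 2.41 and 4.12 to 4.84 and differed between labels by 0.17 and 0.25, the opposite sign. TOP2A, the topoisomerase that untangles sister chromatids, read 4.36, 4.41 and 3.72 against 4.20, 3.99 and 3.90, a difference of 0.13 (SE 0.22, 95% interval -0.38 to 0.65, adjusted p = 0.874). By the brightest probe, vehicle replicate 2 lay inside the range of the other arrays for both genes.

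**Figure D2:**
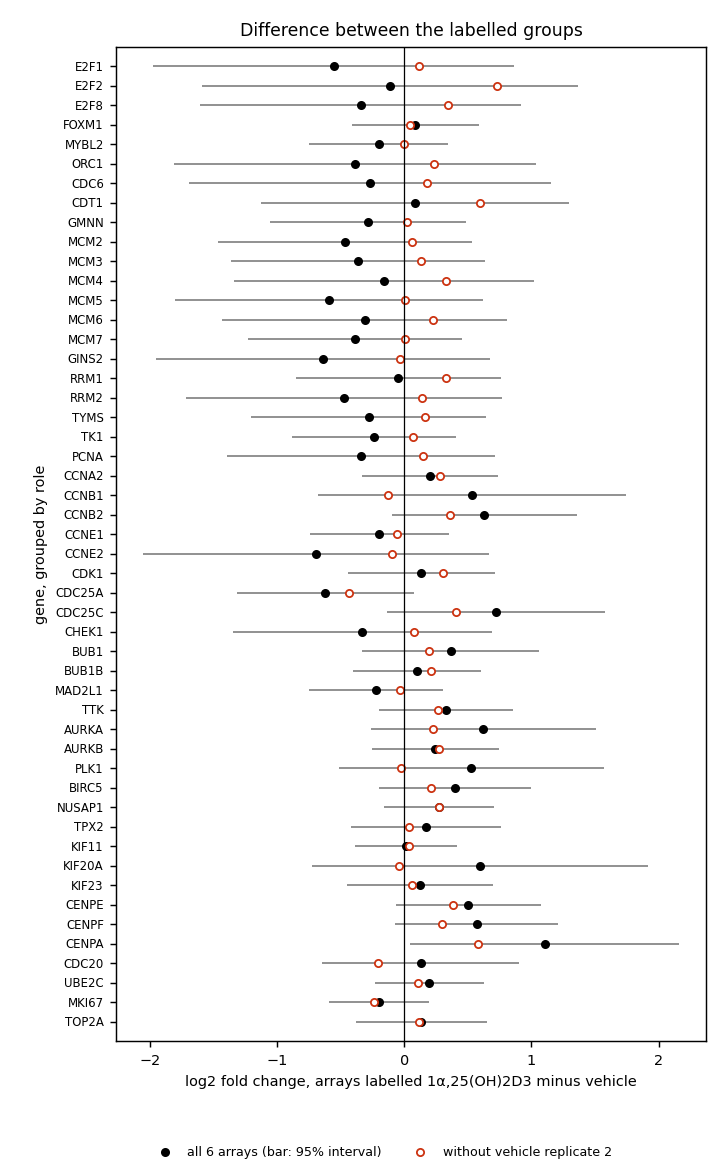
Log2 fold change of each of the 50 genes, arrays labelled 1α,25(OH)2D3 minus those labelled vehicle, with all 6 arrays (black points, bars the 95% interval of the limma fit) and without vehicle replicate 2 (open points). The replication genes moved from mostly below 0 to mostly above 0 when that array was left out, and CENPA is the single gene whose interval with all arrays excludes 0.

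Averaged over genes, the same split appeared. The mean over the 50 genes was 2.59, 2.81 and 2.14 with the 1α,25(OH)2D3 label (2.51 ± 0.34, SD, n = 3) and 2.22, 2.80 and 2.51 with the vehicle label (2.51 ± 0.29, SD, n = 3), a difference of 0.0021. The mean of the 16 replication genes was 2.54, 2.71 and 1.95 against 1.80, 3.69 and 2.67, and that of the 20 mitotic genes 3.17, 3.43 and 2.77 against 3.11, 2.50 and 2.87. The replication mean minus the mitotic mean was thus -0.63, -0.72 and -0.83 with the 1α,25(OH)2D3 label and -1.31, 1.19 and -0.20 with the vehicle label. This difference was highest on vehicle replicate 2, whereas the mean of all 50 genes did not set that array apart. Because each probe has its own brightness, only the shift of this difference between arrays can be read, not its sign.

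**Figure D3:**
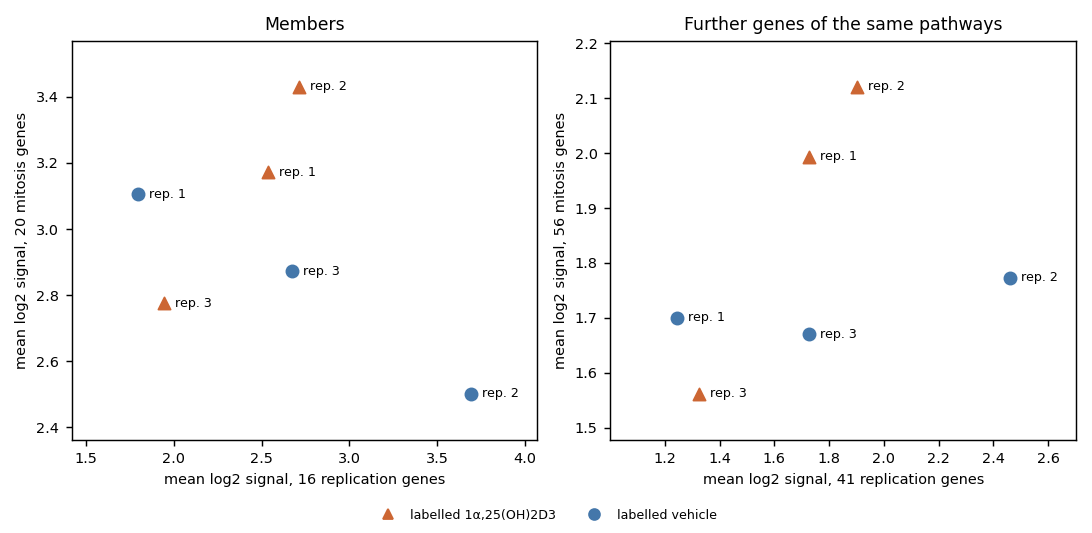
Mean log2 signal of the replication genes (x axis) against that of the mitosis genes (y axis) on each of the 6 arrays, for the members on the left (16 and 20 genes) and for further genes of the same pathways on the right (41 and 56 genes), with triangles for arrays labelled 1α,25(OH)2D3 and circles for vehicle. Vehicle replicate 2 has the highest replication mean in both panels and the lowest mitosis mean only in the left one.

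Other measures of vehicle replicate 2 are given beside this. It had the lowest share of probes well above background, 49.1% against 52.5% to 57.6% on the other arrays, and shared its slide with vehicle replicates 1 and 3 and 1α,25(OH)2D3 replicate 3. The mean of the 8 detected markers of other cell types was 0.05 on it, against 0.08 to 0.30 on the others, and that of the cancer line's own markers 5.97, against 5.64 to 5.89. Of the cancer line's markers, KRT19 lay 1.20 above the mean of the other arrays there, whereas ERBB2 had its lowest signal there (-0.37 from that mean). That ERBB2 signal, 6.62, was nearly the same as on vehicle replicate 3, 6.63, so it did not set the array apart. The median of this array minus the mean of the others over all probes tested was -0.002. The part of these measures in the signals of the proliferation genes was not tested.

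The difference between labels was not the same when the slide was taken as a block. Slide 1 carried 2 arrays, 1α,25(OH)2D3 replicates 1 and 2, and slide 2 carried 1α,25(OH)2D3 replicate 3 with all 3 vehicle arrays, so that a comparison within a slide rests on 1α,25(OH)2D3 replicate 3 alone. With the slide as a block the fold changes were positive for 9 of the 50 genes and negative for 41 (median -0.31), at an unadjusted p under 0.05 for 0. All 16 replication genes were then negative (median -0.77), as were 14 of the 20 mitotic genes (median -0.10), and the mean over the 50 genes was 0.37 lower with the 1α,25(OH)2D3 label.

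Single arrays also decided how many genes passed the unadjusted threshold. Without vehicle replicate 1, which was low for the replication genes, 6 genes were higher with the 1α,25(OH)2D3 label (CCNB2, CDC25C, KIF20A, CENPE, CENPF and CENPA, beside 6.24% of all probes) and 10 were lower (E2F1, MCM5, MCM7, GINS2, RRM2, PCNA, CCNE1, CCNE2, CDC25A and CHEK1, beside 4.22%). Without 1α,25(OH)2D3 replicate 3, 8 genes were higher (CCNA2, CCNB2, BUB1, AURKB, BIRC5, NUSAP1, CENPE and CENPA, beside 7.98%) and 0 lower (6.94%). Without 1α,25(OH)2D3 replicate 1, 0 genes passed (1.48% of all probes higher, 0.959% lower), and without 1α,25(OH)2D3 replicate 2 also 0 (3.29% higher, 2.00% lower). Without vehicle replicate 3, CENPA alone passed, as with all arrays (3.56% higher, 1.92% lower). The smallest adjusted p of any of the 50 genes in these fits was 0.257 (limma).

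Further genes of the same pathways followed the members in part. Of 42 other replication genes, such as polymerase subunits and ligases, 41 had a matching probe (not FEN1), and all 41 were tested. Vehicle replicate 2 was the highest array for 38 of the 41 (16.8% of all probes), with a median of 0.92 above the others. None passed an unadjusted p under 0.05 between labels by limma, and 6 fold changes were positive and 35 negative (median -0.17). The 2 with the smallest p ran in opposite directions. The brightest probe of LIG1, the gene of the ligase that joins Okazaki fragments, lay in a transcript without a coding sequence. That probe read 3.88, 3.87 and 3.49 against 3.39, 3.43 and 3.48, a difference of 0.32 (SE 0.17, adjusted p = 0.712), but the mean of all detected LIG1 probes gave -0.074. POLD2, a subunit of polymerase delta, read 3.19, 3.18 and 2.92 against 3.24, 3.60 and 3.30, a difference of -0.28 (SE 0.17, adjusted p = 0.715).

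Of 59 other mitosis genes, 57 had a matching probe (not CDCA2 or RACGAP1) and 56 were tested. Vehicle replicate 2 was the lowest array for 19 and the highest for 14, beside 17.5% and 16.8% of all probes. These genes therefore did not show the one-sided position of the members there. Fold changes were positive for 46 and negative for 10 (median 0.15), and 2 of the 56 were higher at an unadjusted p under 0.05 and 0 lower, near the 3.90% and 2.55% of all probes. INCENP, the scaffold that targets Aurora B, read 0.65, 0.32 and 0.13 against -0.23, -0.26 and 0.07, a difference of 0.50 (SE 0.19, adjusted p = 0.712 by limma). ECT2, which starts the ring that divides the cell, read 4.79, 4.80 and 4.32 against 4.08, 4.22 and 4.23, a difference of 0.46 (SE 0.18, adjusted p = 0.712 by limma). Its probe, the brightest of 3, lay in the 3' UTR of a transcript that is not the gene's main (canonical) one. The groups did not overlap for either gene, as for 6.30% of all probes in this direction.

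Among 22 upstream regulators of the cell cycle, all tested, none passed an unadjusted p under 0.05 by limma, with 9 positive and 13 negative fold changes (median -0.07). Vehicle replicate 2 was the highest array for 12 and the lowest for 4, beside 16.8% and 17.5% of all probes. TFDP2, a partner of the E2F factors, read 2.91, 2.92 and 2.35 against 2.22, 1.96 and 2.48, a difference of 0.51 (SE 0.22, adjusted p = 0.712). E2F5, a repressor of the family, read 0.17, 0.02 and 0.16 against 0.06, -1.31 and -0.29, a difference of 0.63 (SE 0.33, adjusted p = 0.712).

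The promoters of the members were described for elements known from replication and mitotic genes, and the part of these elements in the signals was not tested. In RefSeq promoter windows (GRCh38.p14, 250 bases before to 50 after the start), found for 40 of the 50 genes, 3 motifs were searched on both strands: the CCAAT box; the CHR, the cell cycle element of late genes, as TTTGAA or TTCGAA; and E2F sites, as TTTGGCGC, TTTCCCGC, TTTGGCGG or TTTCCCGG. No motif contains another. The CHR letters were in 12 of 15 mitotic promoters (80.0%), in 2 of 14 replication promoters (14.3%) and in 16.6% of 27305 promoters in all. E2F sites were in 8 of the 14 replication promoters (57.1%), in 3 of the 15 mitotic ones and in 4.35% of all. The CCAAT box was in 64.3% of replication promoters, 86.7% of mitotic ones and 35.7% of all. These letter matches describe the windows and are not binding sites.

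The further genes carried the same elements. CHR letters were in 74.5% of 51 other mitosis promoters and 5.41% of 37 other replication promoters, and E2F sites in 5.88% and 43.2%.

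**Figure D4:**
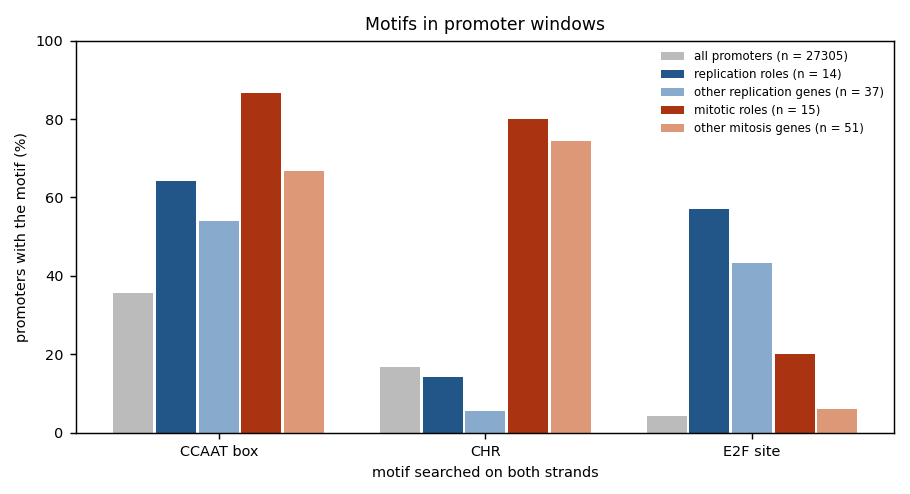
Percent of promoter windows that hold the CCAAT box, the CHR or an E2F site on either strand, for all RefSeq promoters (grey), replication genes (blue, members dark) and mitosis genes (red, members dark), with the number of promoters in the legend. The CHR bars are high for both mitosis groups (80.0% and 74.5%) and the E2F bars for both replication groups (57.1% and 43.2%).

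Promoters of 2 replication genes that were highest on vehicle replicate 2 and of 2 mitotic genes that were lowest on it are shown with these motifs in capitals, each read 5′ to 3′ on the strand of its gene. They do not stand for all such genes. KIF20A and CENPE, also lowest on that array, held no CHR letters. MCM2, ORC1, RRM1, RRM2, TK1 and GMNN, also highest on it, held no E2F site. RRM1 and MCM6, both highest on it, held CHR letters. A motif on the other strand appears as its reverse complement, ATTGG for CCAAT and GCGGGAAA for TTTCCCGC. GINS2 lies on the minus strand (chr16:85688905-85689204), PCNA on the minus strand (chr20:5126573-5126872), CENPF on the plus strand (chr1:214602945-214603244) and PLK1 on the plus strand (chr16:23678639-23678938).
GINS2 promoter: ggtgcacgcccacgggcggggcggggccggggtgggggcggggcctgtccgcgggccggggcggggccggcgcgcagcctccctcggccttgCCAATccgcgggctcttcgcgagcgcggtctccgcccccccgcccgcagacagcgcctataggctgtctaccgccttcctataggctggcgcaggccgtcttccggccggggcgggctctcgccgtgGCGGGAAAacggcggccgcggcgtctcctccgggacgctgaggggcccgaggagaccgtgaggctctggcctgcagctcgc
PCNA promoter: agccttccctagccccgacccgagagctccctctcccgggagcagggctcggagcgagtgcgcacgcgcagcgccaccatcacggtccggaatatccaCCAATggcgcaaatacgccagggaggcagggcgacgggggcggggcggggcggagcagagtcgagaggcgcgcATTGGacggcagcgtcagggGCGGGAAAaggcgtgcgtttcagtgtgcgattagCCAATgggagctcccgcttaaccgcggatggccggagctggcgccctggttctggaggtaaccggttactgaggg
CENPF promoter: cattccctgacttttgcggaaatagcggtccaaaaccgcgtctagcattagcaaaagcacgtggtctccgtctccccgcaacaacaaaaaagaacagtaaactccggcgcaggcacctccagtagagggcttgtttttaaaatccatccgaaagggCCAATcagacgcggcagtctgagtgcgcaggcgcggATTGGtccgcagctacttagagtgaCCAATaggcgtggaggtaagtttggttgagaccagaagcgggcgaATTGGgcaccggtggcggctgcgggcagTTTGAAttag
PLK1 promoter: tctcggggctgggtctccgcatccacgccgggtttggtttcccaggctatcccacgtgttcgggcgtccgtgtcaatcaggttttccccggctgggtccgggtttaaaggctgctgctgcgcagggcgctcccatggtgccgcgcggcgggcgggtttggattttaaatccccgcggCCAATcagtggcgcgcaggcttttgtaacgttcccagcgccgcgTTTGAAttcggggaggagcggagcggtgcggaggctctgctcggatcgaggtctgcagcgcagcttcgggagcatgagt

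The signals were also set beside the CYP24A1 probe of each array. On the arrays where that probe was well above background, 1α,25(OH)2D3 replicate 2 and vehicle replicates 1 and 3, the mean over the 50 genes was 2.81, 2.22 and 2.51. On 1α,25(OH)2D3 replicates 1 and 3 and vehicle replicate 2, where it was not, the mean was 2.59, 2.14 and 2.80. In the same order of arrays, the replication mean was 2.71, 1.80 and 2.67 in the first set and 2.54, 1.95 and 3.69 in the second. The mitotic mean was 3.43, 3.11 and 2.87 in the first set and 3.17, 2.77 and 2.50 in the second. The highest replication mean and the lowest mitotic mean were both on vehicle replicate 2, whose CYP24A1 probe was not above background. A link of these means to CYP24A1 was not tested. Arrays were not averaged or tested by this probe, because groups formed from a measured signal are not labelled groups.

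**Figure D5:**
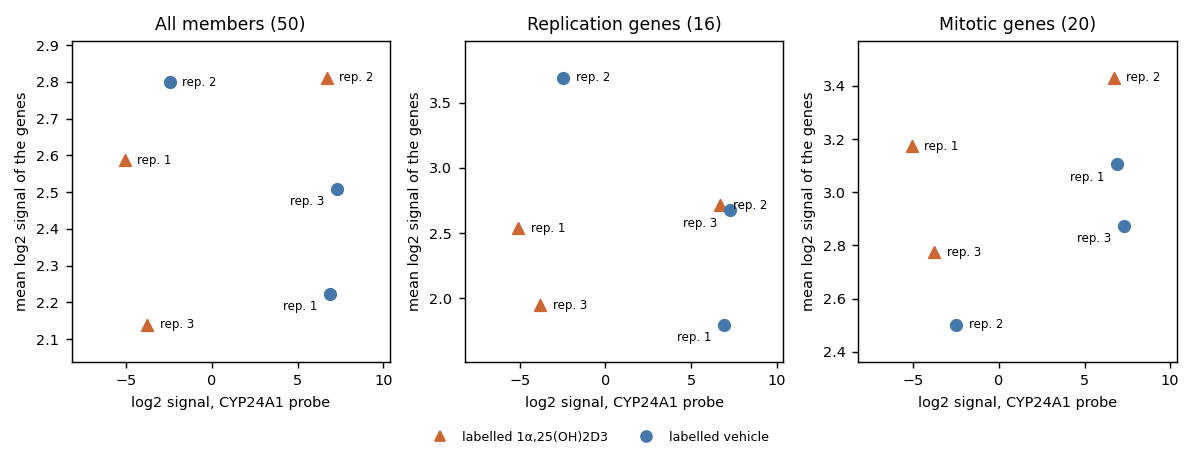
Log2 signal of the CYP24A1 probe (x axis) against the mean log2 signal of all 50 genes, the 16 replication genes and the 20 mitotic genes (y axes) on each of the 6 arrays, by label (triangles 1α,25(OH)2D3, circles vehicle). Arrays with high CYP24A1 signal range from 2.22 to 2.81 in the mean of all genes and those with low signal from 2.14 to 2.80. Vehicle replicate 2 stands apart in the replication panel, and in the mitotic panel it is the lowest array by a smaller gap.

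A second probe gave a partial check of these values. Of the 50 genes, 22 had 29 further probes well above background on all 6 arrays. The position of vehicle replicate 2 against the mean of the others had the same sign as for the brightest probe in 24 of the 29, and the difference between labels in 20. Among the 10 further probes that matched a protein-coding transcript, the sign was the same in 9 for vehicle replicate 2 and in 8 between labels.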

How the data were processed

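The authors treated SKOV3 cells, labelled RNA with Cyanine-3 and scanned 6 single-color arrays with Agilent Feature Extraction 10.7.1.1. The authors deposited for each spot its intensity on a linear scale, background-subtracted within the array, and a table of log2 values normalized by quantiles between arrays. Processed intensities were averaged over a probe's spots without outlier spots, taken as log2 and centred on the 75th percentile of each array. A probe counted as well above background when at least 50% of its spots were. Probes were named by exact sense matches to GENCODE release 44, since the gene column repeats probe names, and a gene's brightest probe was chosen by the mean of the deposited table. The deposited design names hg19, whereas coordinates here are matches to GRCh38. Of the probes, 17 had no value on some array.

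Labelled groups were compared with limma 3.58.1 in R 4.3.3, two-sided, without covariate. The same model was run on simulated data with independent noise for each probe. Those data held no slide effect and no outlying array, so they do not show how the model behaves with either. The number of arrays, 3 per group, limits precision. Members, lists and tests were chosen with earlier results of these data known. In each role the genes named were those with the largest fold change and the smallest p, with MKI67, TOP2A, CCNB1, CDK1, PCNA, E2F1, FOXM1 and MYBL2, and 2 genes from each further list. Other genes were named after their values were seen. Alternatives were other normalizations, normexp (offset 50), other filters, blocks for slide and replicate number, the methods' t-test, all probes of a gene, and each array left out in turn.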

Additional observations from a re-analysis of the deposited data

How the results depend on the processing

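No proliferation gene passed the adjusted threshold under any alternative run (limma or the methods' t-test), and vehicle replicate 2 was the highest array for 16 of 16 replication genes under quantile normalization, the percentile over detected probes, normexp and the deposited log2 values, and the lowest for 11 or, with normexp, 12 of 20 mitotic genes. These scalings were added for this comparison after the data were seen. The 1 gene at an unadjusted p under 0.05, CENPA, was lost (0) without a filter on dim probes, with the slide as a block and with the methods' t-test, and was replaced by CDC25A, which was lower (-0.62), with the replicate block, and the count ran from 0 to 16 when an array was left out. The count with a fold change above 2 as well (1) was 0 with normexp, without the filter, with the replicate block, with the slide as a block and with the t-test, and 0 to 8 without an array. Shares of all probes under these alternatives are not given for that count, so it cannot be compared with them. The median fold change ran from -0.21 to 0.18 and the difference of the mean over the 50 genes from -0.15 to 0.19 without an array, and with the slide as a block the latter was -0.37.

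At an unadjusted p, other replication genes (0) numbered 1 with normexp and with the slide as a block and 0 to 5 without an array. Other mitosis genes (2) numbered 5 with normexp, 1 with the slide as a block and with the mean of all probes of a gene, 0 without the filter and with the replicate block, and 0 to 6 without an array. Upstream regulators (0) numbered 1 with quantile normalization, the percentile over detected probes, normexp, the deposited values, the filter on all 6 arrays and the replicate block, and 0 to 3 without an array. With an array left out, the share of all probes at that threshold ran from 1.48% to 7.98% higher and from 0.959% to 6.94% lower. For the other alternatives that share is not given here. The counts therefore do not show how these lists compare with all probes. The cause was not tested.

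Of 260 fold changes of the named genes with all arrays kept, 250 had the sign reported. With the slide as a block the sign turned for FOXM1 (-0.20), CDK1 (-0.30), BUB1 (-0.23), TTK (-0.039), NUSAP1 (-0.047), UBE2C (-0.012) and TOP2A (-0.30), and with the mean of all probes of a gene for CDK1 (-0.058), MKI67 (0.073) and LIG1 (-0.074). Leaving out an array turned the sign of E2F1 (-1.24 to 0.12), FOXM1 (-0.053 to 0.24), MCM5 (-1.17 to 0.0028), RRM2 (-1.02 to 0.14), PCNA (-0.82 to 0.15), CCNB1 (-0.13 to 0.89), CDK1 (-0.016 to 0.35) and KIF20A (-0.041 to 1.20).

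Arrays of the same replicate number did not deviate together in all 3 pairs (correlations 0.12, 0.09 and -0.04), so the numbers were not taken as a pairing. With the replicate block, 0 genes were higher and 1 lower at an unadjusted p under 0.05, against 1 and 0 without it. Signal over background did not limit detection, since all 50 genes were well above background on all arrays. The number of arrays, the CYP24A1 signals that went against labels and the slide limit what the difference between labels can show.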
